A study of Mus musculus with 3 samples.

Results

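The genes described here encode the subunits, activators and assembly factors of the proteasome, followed across the cells of the mouse retina. Members were taken by symbol as every gene of the matrix whose name is Psm followed by a, b, c, d or e and a digit, which gave 44 of 18545 genes. Of these, 43 encode a subunit, an activator or an assembly factor. The remaining gene, Psmc3ip, only shares the name pattern and encodes a protein of meiotic recombination.

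Droplet libraries were made from papain-dissociated retinas of C57BL/6J mice aged 8 weeks that had lived in darkness throughout. There were 3 groups, each sequenced as 1 pooled library. WT mice were wild type and ate the base chow. The rd10-vehicle and rd10-TMB mice were females with the rd10 genotype, a point mutation of the rod phosphodiesterase gene Pde6b under which rods and later cones are lost. The rd10-vehicle mice ate the base chow, and the rd10-TMB mice ate chow that also held tamsulosin and metoprolol, which block adrenergic receptors, and bromocriptine, a dopamine receptor agonist. Each library pooled 1 retina from each of 4 mice according to the labels, whereas a smaller number of mice is given for the rd10 groups in the study's methods. The WT pool held females and males by the study's methods, and 39.1% of its cells showed Xist but no Y-linked UMI, against 94.6% with vehicle and 91.8% under TMB, so comparisons of the whole WT pool also differ in sex. No group was replicated, so no difference was tested, and each 95% interval covers counting error only and describes these libraries.

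The proteasome is the barrel-shaped protease that degrades proteins tagged with ubiquitin. Its core particle has outer rings of alpha subunits, which form the gate, and inner rings of beta subunits, some of which carry the catalytic sites. The regulatory particle binds the tagged protein, and its ring of ATPases (Psmc genes) unfolds the protein and feeds it into the core. Under interferon the catalytic beta subunits Psmb5, Psmb6 and Psmb7 can be replaced in newly built particles by Psmb8, Psmb9 and Psmb10. Particles of this kind are called immunoproteasomes, and they cut peptides suited to presentation on major histocompatibility complex (MHC) class I. PA28, a ring of Psme1 and Psme2 products, is an interferon-induced cap of the core particle. Müller glia (MG) are the radial glia of the retina and react to photoreceptor loss.

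The members held 94818 unique molecular identifiers (UMIs) in the WT library, 178174 in rd10-vehicle and 138973 in rd10-TMB. These were 0.502%, 0.482% and 0.476% of all UMIs, and each of the 44 members had at least 1 UMI in each library. The libraries held 4478, 5952 and 4812 cells with median depths of 3509.5, 4811.5 and 4772.5 UMIs per cell, and pairs of libraries shared 7 to 10 cell barcodes. Levels are UMIs summed over the cells of a cluster in a library, as UMIs per 1000000 UMIs of those cells (CPM). Where 3 values follow each other they stand in the order WT, rd10-vehicle, rd10-TMB. The vehicle/WT ratio is the log2 ratio of rd10-vehicle to WT, and the TMB/vehicle ratio is that of rd10-TMB to rd10-vehicle. Counts come from transcript ends and are not scaled by length, so levels were compared between cells and libraries and not between genes.

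The deposited clusters are numbered, and a name ending in "-like" was given here from marker genes. MG-like cells (cluster 0; 530, 2492 and 1748 cells) carried 15 of 15 MG markers. Rod-like cells (cluster 1) carried 16 of 16, rod bipolar-like (RBC-like) cells (cluster 2) 10 of 11 and cone-like cells (cluster 4) 14 of 14. Cluster 3 was called ON cone bipolar-like (ON CBC-like) from 7 of 16 markers, none of which was among its 10 leading genes. Endothelial-like cells (cluster 11) carried 11 of 12 endothelial markers and also 11 of 11 pericyte markers.

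Promoter windows are shown for Psmb8 and Psmb9 beside those of the constitutive subunits they replace, Psmb5 and Psmb6, and for Psme1, so that the inducible and constitutive genes described below can be read against each other. Each window holds 300 bases, 250 before the transcription start and 50 from it on, taken from RefSeq for GRCm38.p6 (mm10, the build of the files), which listed 37 of the 44 members. Sequences read 5′ to 3′ on the strand of the gene, and capitals mark letters that match a searched motif on either strand. TTCNNNGAA is a letter pattern bound by STAT factors and GAAANNGAA one bound by interferon regulatory factors. TGACNNNGC is that of the antioxidant response element, which Nfe2l1 and Nfe2l2 bind. The windows lie at chr17:34197945-34198244 (plus strand) for Psmb8, chr14:54617946-54618245 (minus strand) for Psmb5 and chr17:34187281-34187580 (minus strand) for Psmb9. They lie at chr11:70525107-70525406 (plus strand) for Psmb6 and chr14:55578244-55578543 (plus strand) for Psme1.
Psmb8: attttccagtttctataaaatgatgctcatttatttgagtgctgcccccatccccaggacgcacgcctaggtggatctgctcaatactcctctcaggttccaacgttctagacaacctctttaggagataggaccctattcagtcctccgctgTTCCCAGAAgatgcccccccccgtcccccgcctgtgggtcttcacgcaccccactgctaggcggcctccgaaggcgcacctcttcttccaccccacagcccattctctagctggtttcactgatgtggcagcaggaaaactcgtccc
Psmb5: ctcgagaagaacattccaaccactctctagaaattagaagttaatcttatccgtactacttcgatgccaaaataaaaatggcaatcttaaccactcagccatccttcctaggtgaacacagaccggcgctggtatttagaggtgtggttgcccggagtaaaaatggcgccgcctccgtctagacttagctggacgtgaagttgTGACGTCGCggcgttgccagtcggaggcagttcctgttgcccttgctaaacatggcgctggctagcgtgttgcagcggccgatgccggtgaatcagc
Psmb9: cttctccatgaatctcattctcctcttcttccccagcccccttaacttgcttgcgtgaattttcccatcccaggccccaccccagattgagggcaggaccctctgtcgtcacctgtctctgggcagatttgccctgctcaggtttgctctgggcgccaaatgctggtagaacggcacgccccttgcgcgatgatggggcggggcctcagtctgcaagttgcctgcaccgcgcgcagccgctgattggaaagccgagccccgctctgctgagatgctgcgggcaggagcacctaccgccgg
Psmb6: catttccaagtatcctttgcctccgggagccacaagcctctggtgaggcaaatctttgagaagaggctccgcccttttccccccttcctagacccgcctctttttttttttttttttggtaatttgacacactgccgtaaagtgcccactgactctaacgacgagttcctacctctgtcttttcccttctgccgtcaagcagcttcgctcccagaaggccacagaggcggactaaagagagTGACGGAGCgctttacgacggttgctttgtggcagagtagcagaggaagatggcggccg
Psme1: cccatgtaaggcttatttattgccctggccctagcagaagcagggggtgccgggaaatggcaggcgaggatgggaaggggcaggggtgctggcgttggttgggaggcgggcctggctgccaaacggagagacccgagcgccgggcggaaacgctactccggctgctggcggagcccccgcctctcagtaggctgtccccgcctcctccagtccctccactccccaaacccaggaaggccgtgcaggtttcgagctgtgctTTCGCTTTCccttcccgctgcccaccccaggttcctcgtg
TTCNNNGAA was found in the windows of Psmb8 and Psmd2, and in 8.30% of all 32851 windows. In Psmb8 the match begins 97 bases before the start. GAAANNGAA was found for 6 members, Psmb3, Psmb4, Psmc2, Psmd4, Psmd9 and Psme1, and in 8.56% of all windows. TGACNNNGC was found for 6 members, Psmb5, Psmb6, Psmc6, Psmd12, Psmd9 and Psme4, and in 12.4% of all windows. It begins 47 bases before the start in Psmb5 and 9 bases before it in Psmb6. In the 5 windows shown no matches overlapped, and that of Psmb9 held none of these letter patterns. A match describes the letters and not a binding site.

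How evenly proteasome transcripts are spread over retinal cells was examined first. The core sum adds the 31 genes of the alpha ring, the constitutive beta ring and the regulatory particle. Only the 10 clusters with at least 100 cells in each library were ranked, which leaves out the amacrine-like clusters 5 and 9 with 461 and 295 WT cells. In WT the core sum was lowest in MG-like cells at 3706 CPM (3641 to 3772). It was highest in the unnamed cluster 6, which carried bipolar and amacrine markers, at 5243 CPM (5094 to 5395). The same clusters marked the ends in rd10-vehicle, at 3902 CPM (3876 to 3928) and 5259.8 CPM (5089.7 to 5434). In rd10-TMB the lowest was again MG-like at 3812 CPM (3783 to 3842), and the highest was the OFF cone bipolar-like cluster 8 at 5409 CPM (5229 to 5594). Among the 10 clusters with at least 100 cells in each library, MG-like and rod-like cells held the lowest and next lowest place in all 3 libraries, and their intervals did not overlap. Rod-like cells stood at 4106, 4349 and 4290.4 CPM, RBC-like cells at 4829, 5045 and 5041, ON CBC-like cells at 4423, 4966 and 4849 and cone-like cells at 4438, 4643 and 4744. Most other neighbours in the order had overlapping intervals. Microglia-like cells (cluster 13), which were too few for these 10, stood lower still, at 3017 CPM (2831 to 3213) with vehicle and 2751 CPM (2542 to 2973) under TMB.

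**Figure D1:**
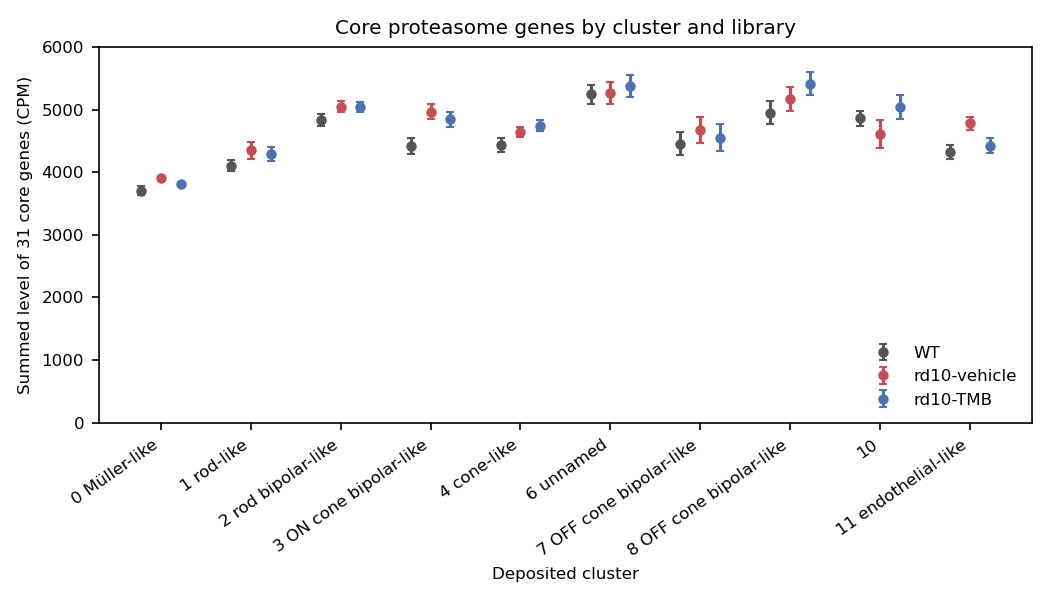
Summed level of the 31 core genes in CPM (vertical axis, from 0) in 10 deposited clusters (horizontal axis) for the WT, rd10-vehicle and rd10-TMB libraries. Points are sums and bars 95% Poisson intervals, and MG-like (Müller-like) cells, between 3706 and 3902 CPM, lie below each other cluster shown for their library.

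Single members differed in how much they varied over cell types. The coefficient of variation (CV) of CPM was taken over the 12 clusters with at least 100 cells in WT and over 10 in each rd10 library. For the core genes the median CV was 0.172, 0.169 and 0.175, where counting alone gave medians of 0.0808, 0.0891 and 0.0861. The highest CV of a core gene in any library was 0.335. Psmb8 had a CV of 2.50, 1.98 and 2.07 and Psmb10, which is present at a low level in most clusters, 0.913, 0.968 and 0.923. Psme1 had 0.680, 0.828 and 0.713 and Psme2 0.660, 0.746 and 0.777. Among the clusters with at least 100 cells these 4 interferon-inducible genes had their highest level in endothelial-like cells in each library. Clusters share a library and are not replicates, so the CV is a description.

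**Figure D2:**
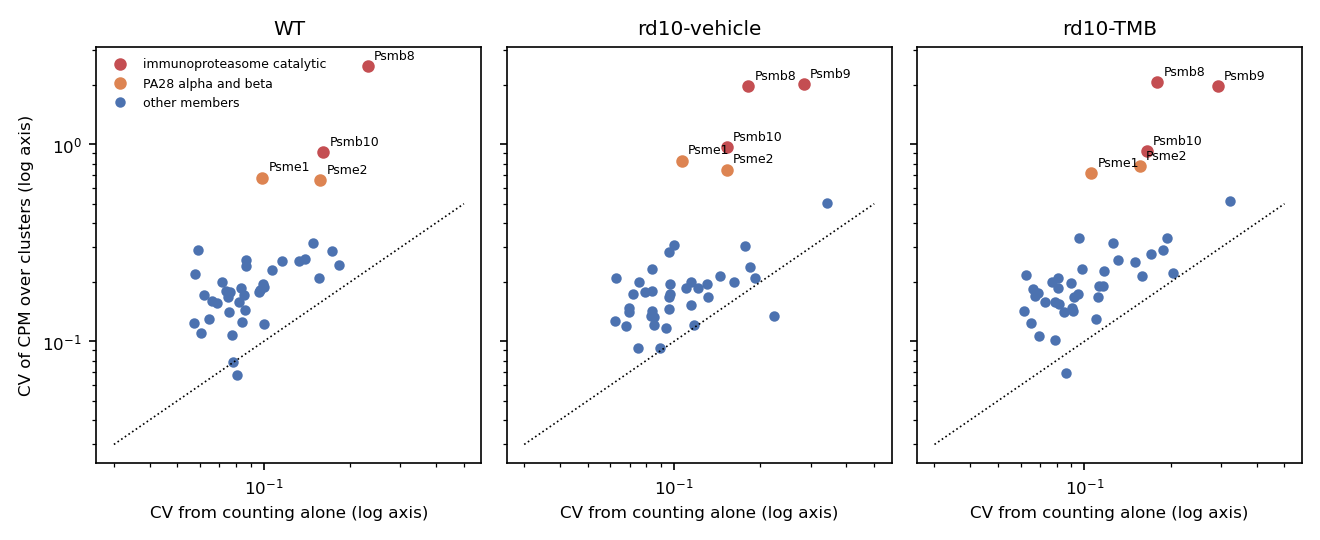
Coefficient of variation of CPM over clusters (vertical log axis) against the CV that counting alone would give (horizontal log axis), 1 point per member with at least 200 UMIs, in 3 panels for the libraries. The dotted line marks equality, and Psmb8 at 1.98 to 2.50 and the other interferon-inducible members stand above the rest.

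In MG-like cells the immunoproteasome genes had the highest vehicle/WT ratio of all roles. Psmb8, Psmb9 and Psmb10 together stood at 120.5 CPM (109 to 133) in WT, 259 CPM (253 to 266) with vehicle and 244 CPM (236 to 251) under TMB, from 400, 5754 and 4088 UMIs. Both rd10 libraries lay above WT, and the intervals did not reach it. The vehicle/WT ratio was 1.10 (0.96 to 1.255) and the TMB/vehicle ratio -0.089 (-0.15 to -0.031). The latter was -0.14 (-0.32 to 0.041) with each cell thinned to 1000 UMIs, an interval that includes 0. With the WT pool limited to cells that had Xist and lacked Y-linked UMIs, the vehicle/WT ratio was 1.23 (1.01 to 1.45).

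Psmb8, which replaces the chymotrypsin-like subunit, lies at chr17:34198195-34201454 within the MHC. In MG-like cells it had 193, 3031 and 2263 UMIs, or 58.1, 136 and 135 CPM. The rd10 libraries were nearly equal, and rd10-vehicle was 2.34-fold above WT with a vehicle/WT ratio of 1.23 (1.02 to 1.45) and a TMB/vehicle ratio of -0.017 (-0.097 to 0.061). Psmb9, which replaces the caspase-like subunit, lies beside it at chr17:34182030-34187330. It had 66, 916 and 635 UMIs, or 19.9, 41.3 and 37.9 CPM, lowest in WT. Its vehicle/WT ratio was 1.03 (0.69 to 1.44) and its TMB/vehicle ratio -0.12 (-0.27 to 0.023), although with each cell thinned to 1000 UMIs the latter was -0.56 (-1.11 to -0.052). Psmb10 replaces the trypsin-like subunit and lies outside the MHC, at chr8:105935728-105938392. It had 141, 1807 and 1190 UMIs, or 42.5, 81.4 and 70.9 CPM, with WT lowest and rd10-TMB between the others. The vehicle/WT ratio was 0.93 (0.69 to 1.20) and the TMB/vehicle ratio -0.20 (-0.30 to -0.092). Of these genes only Psmb10 had a TMB/vehicle interval below 0 over all MG-like cells.

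The constitutive partners differed little in the same cells. Psmb5, the chymotrypsin-like subunit, had 689, 5009 and 3714 UMIs, or 208, 226 and 221 CPM, with a vehicle/WT ratio of 0.12 (0.006 to 0.24). Psmb6, the caspase-like subunit, stood at 201, 216 and 209 CPM with 0.11 (-0.009 to 0.23). Psmb7, the trypsin-like subunit, stood at 97.9, 101 and 102 CPM with 0.035 (-0.13 to 0.21). Their TMB/vehicle ratios were -0.027 (-0.089 to 0.034), -0.048 (-0.11 to 0.015) and 0.028 (-0.064 to 0.12).

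The share of each pair's UMIs taken by the immunoproteasome gene was computed within each library, since it does not depend on the library total. It is a share of transcript tags and not of assembled particles. In MG-like cells Psmb8 took 21.9% (19.2 to 24.8%), 37.7% (36.6 to 38.8%) and 37.9% (36.6 to 39.1%) of the UMIs of Psmb8 and Psmb5, with exact binomial intervals. Psmb9 took 9.004% (7.03 to 11.3%), 16.01% (15.1 to 16.98%) and 15.3% (14.2 to 16.4%) of its pair with Psmb6. Psmb10 took 30.3% (26.1 to 34.6%), 44.7% (43.2 to 46.3%) and 40.9% (39.1 to 42.7%) of its pair with Psmb7. Over all UMIs both rd10 libraries lay above WT beyond counting error in each pair, and only for Psmb10 did the rd10-TMB interval lie below that of rd10-vehicle. With each cell thinned to 1000 UMIs the Psmb9 share was 8.41% (3.92 to 15.4%), 15.01% (12.4 to 17.98%) and 10.2% (7.55 to 13.3%), so that rd10-TMB stood near WT and all 3 intervals overlapped. The thinned Psmb10 share was 27.8% (17.9 to 39.6%), 43.1% (38.5 to 47.9%) and 38.3% (32.7 to 44.0%), also with overlapping intervals. For Psmb8 it was 19.8% (13.9 to 26.7%), 39.6% (36.4 to 42.9%) and 39.1% (35.3 to 43.0%), and both rd10 intervals stayed above that of WT.

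**Figure D3:**
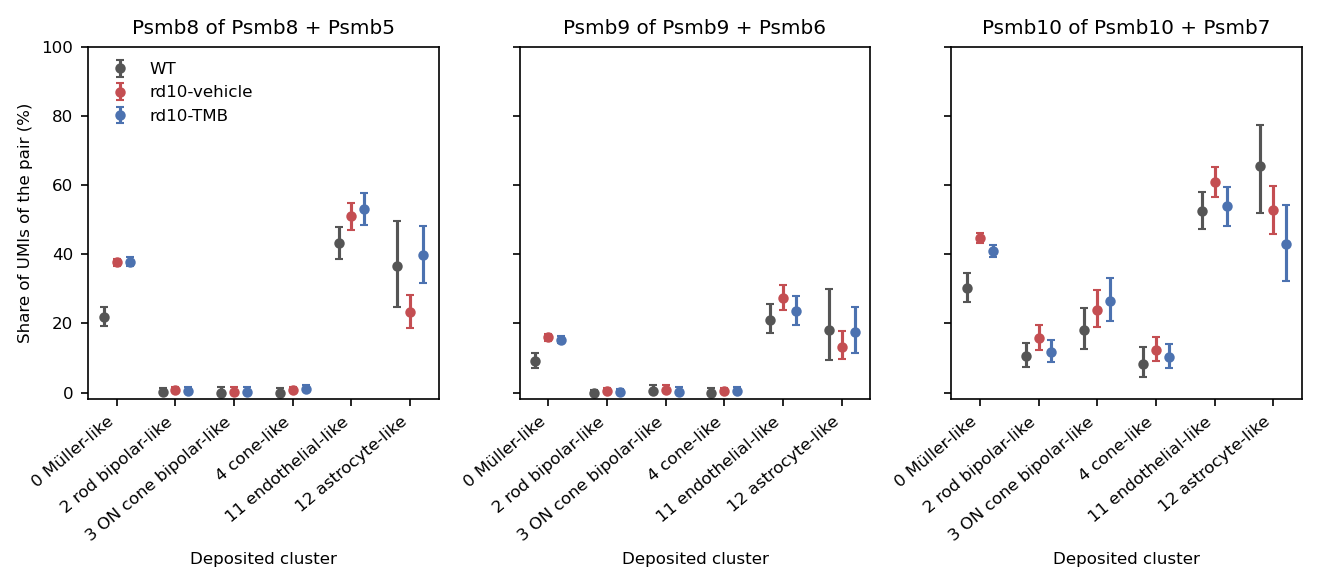
Share of UMIs of each catalytic pair taken by the immunoproteasome gene (vertical axis, percent) in 6 clusters (horizontal axis) and 3 libraries, with exact 95% binomial intervals. In MG-like (Müller-like) cells Psmb8 takes 21.9% of its pair in WT and 37.7% and 37.9% in the rd10 libraries, while the neuron clusters lie near 0 for Psmb8 and Psmb9 and higher for Psmb10.

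In neurons Psmb8 and Psmb9 were close to 0, and Psmb10 was detected at a low level. Over clusters 1 to 4 (rods, RBC, ON CBC and cones), Psmb8 had 1, 13 and 13 UMIs against 1309, 1721 and 1769 of Psmb5, and Psmb9 had 2, 9 and 6. Psmb10 had 87, 182 and 149 UMIs against 795, 952 and 946 of Psmb7. It took 3.43% to 18.02% of its pair in WT, 9.68% to 24.0% with vehicle and 7.86% to 26.6% under TMB.

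The immunoproteasome sum was 4.45, 16.3 and 11.9 CPM in rod-like cells, from only 8, 14 and 15 UMIs, and the vehicle/WT ratio there was 1.87 (0.52 to 3.33). In RBC-like cells it was 17.8, 27.5 and 21.1 CPM with 0.63 (0.026 to 1.254), and in ON CBC-like cells 29.8, 47.6 and 43.7 CPM with 0.67 (0.047 to 1.33). Cone-like cells had 10.5, 19.5 and 17.9 CPM with 0.89 (0.033 to 1.83). These sums rest on fewer than 100 UMIs per cluster and library, most of them of Psmb10, and the TMB/vehicle intervals included 0 in all 4. Over the 10 larger clusters the vehicle/WT ratio was above 0 in 10, from 0.13 to 1.87, and the interval lay above 0 in 6. The TMB/vehicle ratio was below 0 in 9 of 10, with the interval below 0 in 2. All clusters of a library come from the same pool, so their agreement is not replication. With each cell thinned to 1000 UMIs, a Psmb10 UMI was seen in 0.315%, 1.02% and 0.751% of rod-like cells, 0.998%, 1.80% and 1.58% of RBC-like, 1.47%, 1.32% and 1.76% of cone-like and 3.25%, 4.94% and 4.97% of ON CBC-like cells, against 3.79%, 7.31% and 6.31% of MG-like cells. The rod-like counts are too low to set apart from background. The RBC-like and cone-like intervals overlapped those of rod-like cells in each library, whereas the ON CBC-like intervals lay above them.

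The share of cells with a Psmb8 UMI differed in the same direction. With each cell thinned to 1000 UMIs, 6.07% of WT MG-like cells had a Psmb8 UMI (4.19 to 8.46%), against 13.2% with vehicle (11.9 to 14.6%) and 12.7% under TMB (11.2 to 14.3%). Thinning left out 3, 16 and 21 shallower cells. Without thinning the shares were 28.5%, 64.6% and 62.7% at median depths of 6300, 8594 and 9454 UMIs. Rod-like cells, which should lack the gene, served as the background at median depths of 1423, 1406 and 1536 UMIs. After thinning, which left out 226, 68 and 80 of them, 0 of 954 WT rod-like cells had a Psmb8 UMI, which allows a share of up to 0.315%, and the rd10 shares were 0.205% and 0.300%. Unthinned, they were 0 of 1180 cells in WT and 0.719% and 0.402% in rd10. The MG-like shares lay above that background in all 3 libraries.

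Endothelial-like cells had the highest immunoproteasome level of the 10 larger clusters. The sum was 325 CPM (296 to 356), 452 CPM (422 to 484) and 399.9 CPM (366 to 436). The vehicle/WT ratio was 0.48 (0.31 to 0.65) and the TMB/vehicle ratio -0.18 (-0.34 to -0.016). Psmb10 stood at 127, 174 and 132 CPM there, so that rd10-TMB was close to WT, while Psmb8 stood at 139, 190.1 and 192 CPM, equal in both rd10 libraries within counting error. Psmb8 took 43.3% (38.7 to 48.0%), 51.0% (47.1 to 54.8%) and 53.1% (48.4 to 57.8%) of its pair. Microglia-like cells, with 52 and 30 cells in the rd10 libraries, had 533 CPM (457 to 619) and 461 CPM (378 to 558), and their 6 WT cells were too few to compare. Psmb8 took 75.3% (67.4 to 82.2%) and 66.3% (55.9 to 75.7%) of its pair in them.

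Astrocyte-like cells (cluster 12) went the other way, with 222 CPM (174 to 279.8) in 20 WT cells, 159.9 CPM (139.7 to 182) in 88 rd10-vehicle cells and 208 CPM (172 to 249) in 33 rd10-TMB cells. WT was highest and rd10-vehicle lowest, with a vehicle/WT ratio of -0.47 (-0.86 to -0.071) and a TMB/vehicle ratio of 0.38 (0.043 to 0.71). The 3 genes were not alike, since the Psmb8 share of its pair was 36.5%, 23.2% and 39.7% and the Psmb10 share 65.5%, 52.9% and 43.0%.

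**Figure D4:**
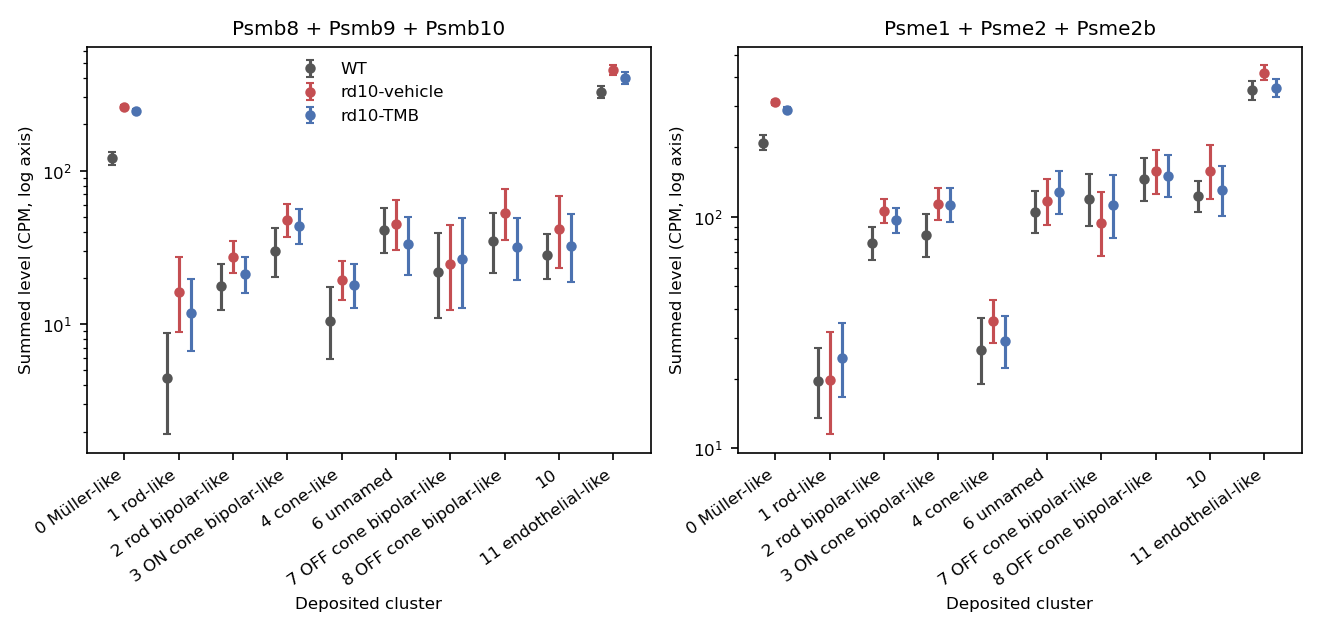
Summed levels in CPM (vertical log axes) of the immunoproteasome catalytic genes (left) and of the PA28 alpha and beta genes (right) in 10 deposited clusters (horizontal axes) and 3 libraries, with 95% Poisson intervals. Endothelial-like and MG-like (Müller-like) cells stand highest on the left, and in MG-like cells the WT point of 120.5 CPM lies below both rd10 points.

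Markers of other cell types in MG-like cells were read beside these values. The 15 microglia markers summed to 20.5, 25.7 and 29.4 CPM, against 42988 CPM in microglia-like cells, and 11 of 15 were above WT in rd10-vehicle. Tmem119 had no UMI, Cx3cr1 had 0, 14 and 8 UMIs, P2ry12 4, 62 and 41 and C1qa 1, 4 and 6. The 12 endothelial markers summed to 1596, 1537 and 1494 CPM, against 16118 CPM in endothelial-like cells, with 4 of 12 above WT in rd10-vehicle. Cldn5 had 2, 52 and 37 UMIs and Cdh5 0, 2 and 1. With the MG-like cells that carried a UMI of any microglia marker or of Cldn5, Pecam1 or Cdh5 left out, 465, 1962 and 1353 cells remained and the immunoproteasome ratios were 1.16 for vehicle/WT and -0.090 (-0.16 to -0.021) for TMB/vehicle. The 11 astrocyte markers summed to 2469, 3138 and 2724 CPM with Pax2 at 0 and 8 of 11 above WT in rd10-vehicle, the 16 rod markers to 1569, 2213 and 2352 CPM with 14 of 16 above WT, and the 11 pericyte markers to 118, 161 and 169 CPM with 8 of 11 above WT. In their own clusters these lists summed to 15226, 77120 and 34648 CPM, and their part in the result was not tested.

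MG-like cells with and without a UMI of Lcn2, a marker of reactive glia, were compared as well. In rd10-vehicle the immunoproteasome sum was 288 CPM (276 to 300.2) in 653 cells with Lcn2, against 245 CPM (237 to 253) in 1839 cells without it. In rd10-TMB it was 286 CPM (270.2 to 303) in 300 cells and 230 CPM (222 to 238) in 1448 cells. Cells with Lcn2 were thus higher in both, and they were also deeper, with median depths of 10153 against 8175 UMIs in rd10-vehicle. In WT, 521 of 530 cells had no Lcn2 and stood at 115 CPM (103 to 127), while the 9 cells with Lcn2 stood at 307 CPM (207 to 438), an interval that holds the level of the rd10 cells with Lcn2. Among cells without Lcn2 the vehicle/WT ratio was 1.09. The core sum was higher in cells with Lcn2 as well. It was 4117 CPM (4071 to 4163) against 3793 CPM (3761 to 3824) in rd10-vehicle and 4094 CPM (4032 to 4156) against 3722 CPM (3689 to 3756) in rd10-TMB. The PA28 sum was also higher with Lcn2 in both, so the difference was not confined to the immunoproteasome genes.

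The PA28 genes were also above WT in rd10 MG-like cells. Psme1, which encodes the alpha subunit at chr14:55578494-55581527, had 480, 4752 and 3309 UMIs, or 145, 214 and 197 CPM. WT was lowest, with a vehicle/WT ratio of 0.56 (0.43 to 0.70) and a TMB/vehicle ratio of -0.12 (-0.18 to -0.054). Psme2, which encodes the beta subunit at chr14:55587440-55591101, had 212, 2150 and 1533 UMIs, or 63.9, 96.8 and 91.4 CPM. Its ratios were 0.59 (0.40 to 0.81) and -0.084 (-0.18 to 0.011). With thinned cells the vehicle/WT ratios were 0.77 and 0.91 and the TMB/vehicle ratios -0.19 and -0.30. Each of these lay outside its interval over all UMIs. They rest on few UMIs, since after thinning 64 WT cells had Psme1 and 29 had Psme2. Psme2b is a near-identical copy of Psme2 with 0, 15 and 15 UMIs, and reads could be split between the copies.

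Neurons showed PA28 at lower levels. In RBC-like cells Psme1 stood at 50.9, 70.7 and 70.4 CPM with a vehicle/WT ratio of 0.47 (0.12 to 0.84). In ON CBC-like cells it stood at 59.6, 86.0 and 82.0 CPM with 0.52 (0.081 to 0.99). Photoreceptors held little of the alpha subunit, with 8.90, 4.65 and 7.91 CPM in rod-like and 5.61, 7.02 and 11.04 CPM in cone-like cells. The sum of Psme1, Psme2 and Psme2b in endothelial-like cells was 350.2, 418 and 359 CPM with 0.26 (0.089 to 0.42) and -0.22 (-0.39 to -0.048). Psme3, which forms the separate nuclear cap PA28 gamma, had 57, 421 and 286 UMIs in MG-like cells with 0.12 (-0.26 to 0.57). Psme4, the cap PA200, stood at 26.8, 22.6 and 24.9 CPM in MG-like cells with a vehicle/WT ratio of -0.26 (-0.58 to 0.094).

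All members were then set against the transcriptome of MG-like cells. Genes with at least 200 UMIs over both libraries were compared, 42 members among 9589 genes, and a gene was counted where its CPM was at least 25% higher or at least 20% lower. For vehicle/WT, 6 of 42 members were higher, beside 14.0% of all genes, so the members' share was that of the background. They were Psmb8, Psmb9, Psmb10, Psme1, Psme2 and Psmc3ip, and Psmc3ip had 30, 262 and 220 UMIs and a ratio of 0.34 (-0.16 to 0.98). None of 42 was lower, beside 17.5% of all genes. Core ratios ran from -0.19 for Psmd14, the deubiquitinase of the lid, to 0.30, and 24 of 31 were above 0. The other lowest members were Psme4 at -0.26 and the assembly chaperone Psmd5 at -0.23. The median was 0.12 over the members and 0.11 over the core genes, beside -0.045 over all genes tested.

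The TMB/vehicle comparison of MG-like cells had no member past either limit. None of 42 was higher, beside 2.38% of all 10566 genes tested, and none was lower, beside 4.57%. The member median was -0.048 and that of all genes -0.021, with 33 of 42 member ratios below 0. The lowest were Psmb10 at -0.20, the ATPase Psmc3 at -0.17 (-0.25 to -0.084) and Psme3 at -0.15 (-0.38 to 0.066). The highest were Psmc3ip at 0.15 (-0.11 to 0.42), Psme4 at 0.14 (-0.048 to 0.33) and the ATPase Psmc5 at 0.10 (0.037 to 0.17). The core sum had a TMB/vehicle ratio of -0.033 (-0.048 to -0.019) and a vehicle/WT ratio of 0.074 (0.047 to 0.10). The former was -0.014 (-0.029 to 0.00) with median-of-ratios size factors and -0.010 (-0.055 to 0.035) with thinning, so that the interval reached 0 in one case, as rounded, and included it in the other.

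**Figure D5:**
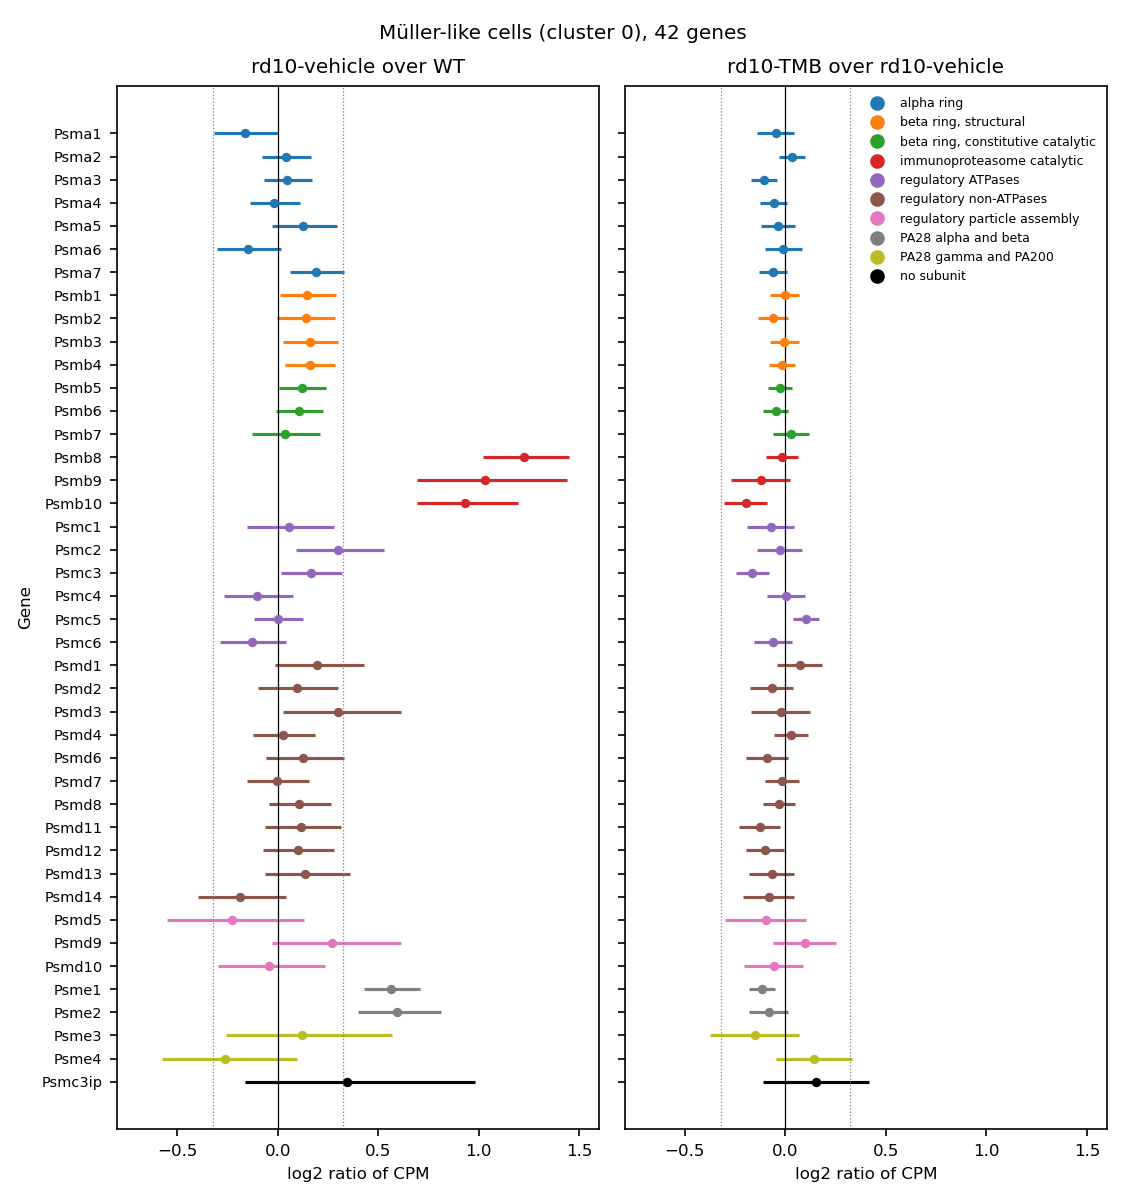
Log2 ratio of CPM (horizontal axes) of 42 members in MG-like (Müller-like) cells for rd10-vehicle over WT (left) and rd10-TMB over rd10-vehicle (right), coloured by role, with exact 95% counting intervals and dotted lines at 25% higher and 20% lower. On the left the immunoproteasome genes at 0.93 to 1.23 and Psme1 and Psme2 at 0.56 and 0.59 stand apart from the core genes, and on the right the points of all members lie between the lines.

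By role, the parts of the core and regulatory particles differed by small and unequal amounts in MG-like cells. The vehicle/WT ratio was 0.15 (0.086 to 0.22) for the sum of the structural beta subunits Psmb1 to Psmb4 and 0.10 (0.027 to 0.17) for the constitutive catalytic ones. The alpha ring had 0.028 (-0.023 to 0.079), the ATPases 0.036 (-0.030 to 0.10) and the non-ATPase subunits 0.085 (0.029 to 0.14). Within the alpha ring Psma7 stood at 157, 179.5 and 172 CPM with 0.19 (0.062 to 0.33), while Psma1 stood at 114, 102 and 98.3 CPM with -0.16 (-0.32 to 0.001). The regulatory particle chaperones Psmd5, Psmd9 and Psmd10 together had 0.021 (-0.15 to 0.20). Psma8, the alpha subunit of the testis, had 0, 3 and 1 UMIs in MG-like cells. Most of its UMIs lay in endothelial-like cells, 7, 9 and 8 of 7, 16 and 9 in all cells.

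Core sums of neurons were also slightly above WT in rd10-vehicle. Rod-like cells had a vehicle/WT ratio of 0.083 (0.026 to 0.14) and cone-like cells 0.065 (0.021 to 0.11). Among bipolar cells it was 0.063 (0.025 to 0.10) for RBC-like and 0.17 (0.11 to 0.22) for ON CBC-like cells. The ON CBC-like value was 0.077 (0.021 to 0.13) among cells with at least 1000 detected genes and 0.38 (0.29 to 0.48) with each cell thinned to 1000 UMIs. Among rod-like cells with at least 1000 genes the ratio was 0.021 (-0.074 to 0.12). With median-of-ratios size factors the ratio was 0.14 in MG-like, 0.15 in rod-like and 0.12 in cone-like cells. Endothelial-like cells had 0.15 (0.098 to 0.19). Over the 10 larger clusters the ratio was above 0 in 9, with an interval above 0 in 6 and below 0 in 0. The TMB/vehicle ratio ran from -0.11 (-0.16 to -0.063) in endothelial-like cells to 0.13 (0.039 to 0.22) in cluster 10, which was also ON CBC-like, with the interval above 0 in 1 and below 0 in 2.

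In rod-like cells 25 members had enough UMIs for the comparison with WT. Psma7 of the alpha ring and the ATPase Psmc5 were at least 25% higher in rd10-vehicle, 2 of 25 beside 11.6% of 2318 genes, and none was at least 20% lower, beside 17.4%. Psmc5 had 321, 207 and 263 UMIs and stood at 178, 240.5 and 208 CPM, with a vehicle/WT ratio of 0.43 (0.17 to 0.69). Psma7 had 0.34 (0.086 to 0.59) and Psma3, of the same ring, 0.31 (0.097 to 0.52). The lowest were Psmd11 at -0.27, Psmd1 at -0.20 and Psmb7 at -0.16, and each interval included 0. For TMB/vehicle, 1 of 22 was higher, beside 6.22% of all genes, and none lower, beside 5.39%. That gene was Psmd7 of the lid at 0.34 (-0.012 to 0.71). Psmb4 at 0.21 and Psmb3 at 0.17 followed, and Psmc5, Psma2 and Psmd12 were lowest at -0.21, -0.19 and -0.19.

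In RBC-like cells Psme1 and the chaperone Psmd9 were at least 25% above WT in rd10-vehicle, 2 of 33 beside 6.36% of all genes, and none was lower, beside 5.04%. Psmd9 stood at 40.7, 53.5 and 48.9 CPM with a vehicle/WT ratio of 0.39 (-0.012 to 0.81), and the ATPase Psmc3 followed with 0.31 (0.098 to 0.53). The lowest were Psmd13 at -0.28, Psmb7 at -0.13 and Psmb2 at -0.13. For TMB/vehicle none of 33 was higher, beside 2.57%, or lower, beside 3.56%. These ratios ran from -0.28 for Psmd3, -0.26 for Psmc3 and -0.23 for Psma6 to 0.14 for Psmc6, 0.15 for Psmb2 and 0.21 for Psmb4.

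In ON CBC-like cells 5 of 28 members were at least 25% above WT in rd10-vehicle, beside 11.8% of all genes, and none was lower, beside 12%. They were the alpha subunits Psma2, Psma4 and Psma7, the beta subunit Psmb3 and the ATPase Psmc1. Psma2 stood at 200.4, 254 and 259.8 CPM with a vehicle/WT ratio of 0.34 (0.094 to 0.59), and Psmb3 at 137, 177 and 169 CPM with 0.36 (0.071 to 0.67). The member median was 0.16, beside 0.034 over all genes, and Psmd1, Psmd2 and Psmd12 were lowest at -0.11, -0.11 and -0.086. For TMB/vehicle 1 of 30 was lower, beside 3.07%, and none was higher, beside 3.91%. The lower gene was Psmc1, with 81, 141 and 81 UMIs, or 75.5, 98.6 and 62.1 CPM. Its level was highest in rd10-vehicle, with a vehicle/WT ratio of 0.38 (-0.019 to 0.80) and a TMB/vehicle ratio of -0.66 (-1.08 to -0.26). Psmb7 at -0.28 and Psmc2 at -0.25 came next, and Psmd4, Psmc5 and Psmb4 were highest at 0.23, 0.21 and 0.17.

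In cone-like cells Psmd13 of the lid and Psmc5 were at least 25% above WT in rd10-vehicle, 2 of 30 beside 7.23% of all genes, and none was lower, beside 10.3%. Psmd13 had 60, 161 and 111 UMIs, or 42.1, 62.8 and 51.1 CPM, with a vehicle/WT ratio of 0.56 (0.14 to 1.03). Psmc5 stood at 164, 212 and 214 CPM with 0.37 (0.15 to 0.60), and Psmb2, a structural beta subunit, had 0.25 (0.002 to 0.52). The lowest were Psmc6 at -0.29 (-0.49 to -0.075), Psma1 at -0.24 and Psmc1 at -0.20. For TMB/vehicle none of 31 was higher, beside 4.47%, or lower, beside 4.00%. Psmb4 at 0.31 (0.12 to 0.49), Psmc1 at 0.27 and Psmb3 at 0.23 were highest, and Psmc3 at -0.30 (-0.53 to -0.082), Psmd13 at -0.29 and Psmd3 at -0.25 lowest.

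A few core genes leaned the same way in several clusters, and they were chosen after their values were seen. Psmc5 was above WT in rd10-vehicle in clusters 1 to 4, with ratios of 0.43, 0.21, 0.18 and 0.37, and its ratio in MG-like cells was 0.001 (-0.12 to 0.13). Psmb4, a structural beta subunit, was above rd10-vehicle in rd10-TMB in the same clusters, with 0.21, 0.21, 0.17 and 0.31, and at -0.017 (-0.082 to 0.048) in MG-like cells. Psmc3 had TMB/vehicle ratios of -0.17, -0.11, -0.26, -0.059 and -0.30 in clusters 0 to 4, with the interval below 0 in clusters 0, 2 and 4.

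Genes that work with the proteasome but fall outside the name pattern were read from lists in MG-like cells, where 14.0% of all genes were higher and 17.5% lower for vehicle/WT, so that 1 gene of a list of 8 or 9 is no more than that background. Of the 5 core particle assembly genes none passed either limit in either comparison. Pomp, the maturation factor of the beta ring, stood at 308, 368 and 338 CPM with ratios of 0.26 (0.16 to 0.35) and -0.13 (-0.17 to -0.077). Of the 2 regulatory particle subunits named otherwise 1 was higher for vehicle/WT, namely the ubiquitin receptor Adrm1 at 0.43 (0.12 to 0.80). Of the 9 regulators 1 was lower, Ecpas, a proteasome adaptor, at -0.39 (-0.61 to -0.15). Nfe2l1, the transcription factor that drives proteasome genes when proteolysis fails, stood at 87.7, 95.8 and 84.8 CPM with 0.12 (-0.049 to 0.31) and -0.18 (-0.27 to -0.078). Among the 8 shuttle and unfoldase genes 1 was higher, Nploc4, a partner of the unfoldase Vcp, at 0.45 (-0.075 to 1.11). Ubb, which encodes polyubiquitin, was at least 25% above WT with a vehicle/WT ratio of 0.32 (0.29 to 0.36). For TMB/vehicle no regulator, shuttle or unfoldase gene and neither of the subunits named otherwise passed a limit.

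The class I presentation genes, which use the peptides that immunoproteasomes make, stood higher in rd10-vehicle together with Psmb8, Psmb9 and Psmb10. In MG-like cells 6 of 8 genes tested (H2-D1, H2-K1, B2m, Irf1, Tap1 and Tapbp) were at least 25% above WT, where 14.0% of all genes were. The list was chosen with earlier results of these data known. Its count is therefore a description and no test against that share. The heavy chain H2-D1 stood at 56.6, 195 and 169 CPM and H2-K1 at 139.8, 343 and 298 CPM, with vehicle/WT ratios of 1.78 (1.57 to 2.005) and 1.29 (1.16 to 1.43). Reads of these heavy chain genes could be split between similar copies. The light chain B2m stood at 129.5, 364 and 342 CPM with 1.49 (1.35 to 1.63). Irf1, a transcription factor of the interferon response, stood at 27.7, 97.0 and 83.9 CPM with 1.79 (1.51 to 2.12). The peptide transporter genes Tap1 and Tap2 had 0.54 (-0.009 to 1.24) and 0.29 (0.028 to 0.58), and the loading factor Tapbp had 0.40 (0.16 to 0.67). Nlrc5, the class I transactivator, had too few UMIs, with 2, 69 and 51. None of the 8 passed a limit for TMB/vehicle, where H2-D1, H2-K1 and Irf1 had -0.21 (-0.28 to -0.14), -0.20 (-0.26 to -0.15) and -0.21 (-0.31 to -0.11). In endothelial-like cells the vehicle/WT ratio was 0.62 (0.50 to 0.74) for H2-D1 and 0.57 (0.19 to 0.97) for Irf1. H2-D1 was above WT in neurons too, at 1.84 (1.15 to 2.60) in rod-like and 1.12 (0.57 to 1.75) in RBC-like cells. It had 2.08 (1.415 to 2.95) in ON CBC-like and 1.57 (1.26 to 1.93) in cone-like cells. H2-K1 had 0.12 (-0.39 to 0.68) in cone-like cells. The TMB/vehicle ratio of H2-D1 was -0.97 (-1.22 to -0.74) in cone-like and -0.68 (-1.17 to -0.22) in ON CBC-like cells. In rod-like and RBC-like cells its interval included 0.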

How the data were processed

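Retinal cells were profiled in 3 pooled droplet libraries (WT, rd10-vehicle and rd10-TMB). The authors aligned reads to mm10 with Cell Ranger 6.0.1 (version per the submitters' processing notes), removed doublets with Scrublet, kept cells with at least 500 genes and clustered them in Seurat 3.2.2 after Harmony correction. Values in the deposited matrix are on a natural log scale, the log of 1 plus the cell's UMIs scaled to a total of 10000. A deposited cell table gives per cell the UMI total (a count), the library and the cluster number. All 32620606 entries were converted to UMI counts, and 100% were whole within 0.001 UMI. Their sums equalled the deposited totals in 15242 of 15242 cells. No cell filter and no doublet caller were added. The authors' tests over cells (MAST) were not used.

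The members and all gene lists were chosen with earlier results of these data known. A cluster was named where at least 3 markers, and at least 40% of a list, were at 20 CPM or more and 2-fold above the other cells, and no other class had more. All 211 marker entries were in the matrix. A few genes of the lists are not reported here. The names were rebuilt here and may differ from those of the study.

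UMIs were summed per cluster and library and scaled to CPM. Log2 ratios of single genes had a pseudocount of 1 UMI per library, those of sums had none. Poisson, Clopper-Pearson and exact conditional intervals are at 95% and cover counting error only. Cells are not replicates, so no p-value was computed. Members with at least 20 UMIs could be named. In clusters 0 to 4 the 3 highest and 3 lowest ratios among members with at least 200 UMIs were named, as were the immunoproteasome and PA28 genes. Where no UMI was seen, the limit given is the share that 3 counts would make. Coordinates and promoter windows are those of RefSeq on GRCm38, and all 44 members were matched by symbol for coordinates. A point mutation does not show in tag counts, so genotype was not checked. Scripts (Python 3.11.15, NumPy 2.4.6, SciPy 1.17.1) were tested on simulated counts. The alternatives were other scalings, the mean over cells, cell filters, thinning to 1000 UMIs, other count minimums and folds, and a WT pool cut to cells with an Xist UMI and none from the Y chromosome.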

Additional observations from a re-analysis of the deposited data

Results flagged for a closer look

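Sums of members by role had counting intervals on opposite sides of 0 in different clusters with at least 20 cells in each library, under the same contrast. Without replicate libraries these differences between clusters were not tested. For rd10-vehicle over WT, the log2 ratio of Psmb8, Psmb9 and Psmb10 together was -0.47 in astrocyte-like cells and above 0 in MG-like (1.10), rod-like (1.87), RBC-like (0.63), ON CBC-like (0.67), cone-like (0.89) and endothelial-like cells (0.48). The rod-like value rests on 8 WT and 14 rd10-vehicle UMIs, too few to set apart from background, and the astrocyte-like value on 20 WT cells with 72 UMIs of these genes. For rd10-TMB over rd10-vehicle the same sum was 0.38 in astrocyte-like cells, -0.089 in MG-like and -0.18 in endothelial-like cells.

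The core sum for rd10-TMB over rd10-vehicle was -0.033 in MG-like and -0.11 in endothelial-like cells, against 0.14 in the amacrine-like cluster 5, with 43 and 35 cells in the rd10 libraries, and 0.13 in the ON CBC-like cluster 10. The interval of the MG-like value reached 0, as rounded, with median-of-ratios size factors (-0.014) and included 0 with thinning (-0.010). The sum of the structural beta subunits was 0.089 in RBC-like and 0.20 in cone-like cells, against -0.19 in endothelial-like cells.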

How the results depend on the processing

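No paired analysis was possible because each group has 1 library. The immunoproteasome ratio of rd10-vehicle over WT in MG-like cells was above 0 under each alternative run, from 0.985 to 1.23, and was 1.23 when the WT pool was cut to its cells with Xist and without Y-linked UMIs. The lowest value had an interval of -0.84 to 3.42, which includes 0, and came from the MG-like cells named next. The rd10-TMB over rd10-vehicle ratio of -0.089 was -0.29 (-1.38 to 0.82) in the 14, 36 and 50 MG-like cells without any UMI of a microglia or endothelial marker. With thinning it was -0.14 (-0.32 to 0.041). The marker-free alternative was chosen after seeing the data, as were those without microglia markers, Cldn5, Pecam1 and Cdh5 and without Lcn2.

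Core sum ratios left their main interval under 12 of 75 alternatives. With median-of-ratios size factors the rd10-vehicle over WT ratio was 0.14 in MG-like, 0.15 in rod-like and 0.12 in cone-like cells, and the MG-like rd10-TMB over rd10-vehicle ratio was -0.014. Thinning gave -0.010 for the latter. Among cells with at least 1000 genes the rod-like rd10-vehicle over WT ratio was 0.021. The ON CBC-like ratio was 0.33 as the mean over cells, 0.077 with at least 1000 genes, 0.072 at a mitochondrial share of at most 10% and 0.38 with thinning, and for rd10-TMB over rd10-vehicle it was -0.089 as the mean over cells. The cone-like rd10-TMB over rd10-vehicle ratio was -0.035 at the mitochondrial limit, against 0.031 over all cells. The causes were not tested.

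After thinning, the Psmb8 share in MG-like cells was 39.6% in rd10-vehicle, the Psmb9 share 15.01% there and 10.2% in rd10-TMB, and the Psmb10 share 43.15% and 38.3%. The number of members at least 25% higher in rd10-vehicle than in WT was 6, and 4 to 9 under the alternatives, with 9 under median-of-ratios size factors. The share of all genes past the limit can change with these settings too, so these counts are not read against the share of the main setting. The Psmc3ip ratio turned to -0.010 (-1.20 to 1.93) with thinning. Of 156 alternatives for single members in MG-like cells 12 others left the main interval.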
